A study of Homo sapiens with 38 samples.

Results

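The 9 nuclear-encoded tRNA families whose 5′ fragments are widely reported in cells and body fluids were followed in small RNA libraries from material released by DiFi cells, a human colorectal cancer line. They are the glycine tRNAs tRNA-Gly-GCC and tRNA-Gly-CCC, the glutamate tRNAs tRNA-Glu-CTC and tRNA-Glu-TTC, the lysine tRNA tRNA-Lys-CTT, the valine tRNAs tRNA-Val-CAC and tRNA-Val-AAC, the histidine tRNA tRNA-His-GTG and the aspartate tRNA tRNA-Asp-GTC, each named by its amino acid and anticodon and called below without the prefix. They were chosen by name, and their 9 rows are 9 of the 49 nuclear tRNA rows and of the 22549 features in the table. The 49 rows hold 1 tRNA family each.

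The material came from flat plates (2D) or hollow fiber bioreactors (3D), and no group carried a genetic change or a drug. For 2D, 3 pools of 1360 mL of medium were collected after 48 h without serum, and for 3D, 4 pools of about 400 mL were collected from bioreactors at steady growth. Ultracentrifugation (UC) gave a small extracellular vesicle pellet (sEV, 167000 g for 4 h), exomeres (167000 g for 16 h) and supermeres (367000 g for 16 h), the last 2 being small particles without a membrane, with 3 libraries for each culture and fraction. From the 3D medium, size-exclusion chromatography (FPLC) also gave exomeres and supermeres, and a cushion density gradient gave pools 6_7, 9_10 and 12, with 4 libraries each. The labels name heavy vesicles, light vesicles and non-vesicular material for the gradient without tying each to a pool number, so the pools keep their numbers. All 11 groups therefore rest on 1 cell line, and the libraries are not tied to pools, so a p-value speaks of the spread among libraries of this line, which may be technical.

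A transfer RNA carries 1 amino acid to the ribosome, where its anticodon reads the matching codon. Under stress, and in resting cells at a lower rate, ribonucleases such as angiogenin cut some tRNAs in the anticodon loop, which leaves a 5′ fragment that ends there and a 3′ fragment that carries the CCA end. Fragments from glycine, glutamate, lysine, valine, histidine and aspartate tRNAs are among those often found in blood and in conditioned medium, with vesicles and outside them. Full-length tRNA is hard to read because methylated bases stop reverse transcription, and the RNA here was treated with AlkB enzymes, which remove several of these methyl groups. The table counts reads per tRNA family without their position, so 5′ fragments cut in the anticodon loop, other fragments and full-length tRNA cannot be told apart in any value below.

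A gene sequence of each of 7 families, as the deposited table gives it (5′ to 3′, DNA letters, without the CCA end), shows what a 5′ fragment of it would read and how alike the families are. The capitals mark the anticodon, so the letters before them are close to such a 5′ fragment.
tRNA-Gly-GCC-2-1: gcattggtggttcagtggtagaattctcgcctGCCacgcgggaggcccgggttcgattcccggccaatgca
tRNA-Gly-CCC-1-1: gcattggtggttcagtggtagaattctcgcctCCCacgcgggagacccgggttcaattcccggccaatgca
tRNA-Lys-CTT-2-1: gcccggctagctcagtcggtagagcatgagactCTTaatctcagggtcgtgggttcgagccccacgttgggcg
tRNA-Val-CAC-1-1: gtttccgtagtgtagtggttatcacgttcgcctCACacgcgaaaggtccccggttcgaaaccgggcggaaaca
tRNA-Val-AAC-1-1: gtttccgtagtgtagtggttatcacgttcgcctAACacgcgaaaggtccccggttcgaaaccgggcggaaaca
tRNA-His-GTG-1-1: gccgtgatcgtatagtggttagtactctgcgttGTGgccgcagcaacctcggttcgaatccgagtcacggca
tRNA-Asp-GTC-2-1: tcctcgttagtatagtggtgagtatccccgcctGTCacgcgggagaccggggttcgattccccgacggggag

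The letters before the anticodon decide which families the reads can separate. Copies of Val-CAC and Val-AAC shared their first 33 bases, and copies of Gly-GCC and Gly-CCC their first 32, so a 5′ fragment that ends at the anticodon reads the same for both families of such a pair. Some Val-AAC copies also shared 25 bases with alanine tRNAs. Values that were not whole, as happens when a read is divided among features, made up 78.9% of the Gly-GCC, 92.1% of the Gly-CCC and 86.8% of the Glu-CTC, 81.6% of the Glu-TTC and 89.5% each of the Val-CAC, Val-AAC and Lys-CTT values over 38 libraries. The figure was 5.26% for His-GTG, 42.1% for Asp-GTC and 6.71% over the whole table, with a tolerance of 1e-06. The 2 glycine, the 2 glutamate and the 2 valine members are therefore uncertain as separate families.

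The 9 families have 95 named gene copies, 94 of them with coordinates (GRCh38). By GENCODE version 29, 15 loci overlapped an exon of another gene, 27 lay in an intron and 52 were intergenic, with 33 loci on chromosome 1 and 16 on chromosome 6. The Gly-GCC sequence above lies at chr1:161523847-161523917, on the minus strand, and overlaps an FCGR2A exon. The His-GTG sequence at chr1:146038044-146038115, on the plus strand, and the Lys-CTT sequence at chr1:146039401-146039473, on the plus strand, are intergenic neighbours on chromosome 1. The Asp-GTC sequence at chr1:161440825-161440896, on the minus strand, overlaps an exon of the long intergenic RNA AL831711.1. Copies with 1 sequence cannot be told apart by reads: the printed sequence stands for 6 copies of Gly-GCC, 9 of His-GTG and 11 of Asp-GTC.

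Total counts ran from 81079 to 16991360 over the 37 libraries used, and nuclear tRNA counts from 4377 to 3225968. Replicate A of the 3D UC supermere held 46 counts in all and was left out, so that group has 2 libraries. Epithelial marker miRNAs summed to between 25.2 and 87693 CPM (counts scaled to a library total of 1000000) per library, and those of blood cells to between 0 and 658 CPM, of endothelium to at most 86.3 and of liver to at most 56.0. Several libraries stood apart from their groups: FPLC exomere A, with tRNA at 20.6% of counts against 0.958 to 3.82%, 3D UC exomere C, with 5.94% against 0.770 and 0.948%, FPLC supermere D, with rRNA at 7.67% of counts and snRNA at 39.3%, and 2D supermere C, with snRNA at 52.0% of counts. In 3D UC sEV A, Gly-GCC took 50.5% of tRNA counts against 17.1 and 12.0% in B and C. Counts of passing members that rest on these libraries are given with and without them.

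All levels below are CPM, which depend on what else the library holds, or shares of the 49 nuclear tRNA rows, which do not depend on other RNA classes. A lower CPM of a tRNA, fewer particles that carry it and more of another RNA in the library cannot be told apart. Y RNA, another small RNA class, took 66.4 to 83.9% of counts in 3D UC exomere and 80.4 and 93.6% in 3D UC supermere. In 2D it took 8.82 to 9.66% in exomere and 4.12 to 4.87% in supermere. In sEV it took 13.4 to 24.3% in 3D and 11.9 to 14.3% in 2D. Log2 fold changes come from edgeR with TMM scaling, over 8979 tested features, with Benjamini-Hochberg adjustment and a threshold of 0.05. TMM factors ran from 0.0670 to 8.99, so counts of passing members by library totals are given beside them. Some counts under another scaling, or among tRNA rows alone, stand without the share of other features that passed. Such a count describes the setting and is not a result about the members as a group. Library values are listed in the order of replicates A, B, C and, where present, D.

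Together the members took 84.9% or more of tRNA counts in every 2D sEV and pool 6_7 library, and their share ranged more widely in each other group. They made up 95.8 to 96.4% of tRNA counts in the 2D sEV libraries, where tRNA took 19.0 to 22.2% of all counts. In gradient pool 6_7 they made up 84.9 to 92.9% of tRNA counts, with tRNA at 10.1 to 30.7% of all counts. In 3D UC sEV they made up 87.7, 69.7 and 59.4%, in FPLC exomere 36.3, 80.1, 80.3 and 87.0% and in 2D exomere 79.2, 74.3 and 55.1%, so vesicle and particle libraries overlapped in this share. They made up 28.6 to 45.2% in gradient pool 12 and 17.8 and 34.8% in 3D UC supermere. In pool 9_10 they made up 59.4 to 83.6% and in 3D UC exomere 30.2 to 73.3%. The share was 40.4 to 59.2% in 2D supermere and 26.5 to 69.3% in FPLC supermere. Gly-GCC, which reads glycine codons ending in C or U, led the members in every 2D sEV, pool 6_7 and pool 9_10 library, and Asp-GTC, the only cytosolic aspartate tRNA family in the list, came next in 2D sEV. Gly-GCC stood at 107628 ± 12938 CPM (SD, n = 3) in 2D sEV, 94570.3 ± 39415 CPM (SD, n = 4) in pool 6_7 and 65329.8 ± 16018 CPM (SD, n = 4) in pool 9_10. Pool 6_7 overlapped both of the others, and every 2D sEV library lay above every pool 9_10 library. It was lower in 3D UC sEV, at 21571, 18934 and 18039 CPM, and in FPLC exomere, at 10556, 4428, 3052 and 19341 CPM, which overlapped each other. The 3D UC exomere libraries, at 1824, 2478 and 1965 CPM, lay below all of these and above every 2D exomere, supermere and pool 12 library. The plot of each family by library shows these levels for Gly-GCC beside the other members.

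**Figure D1:**
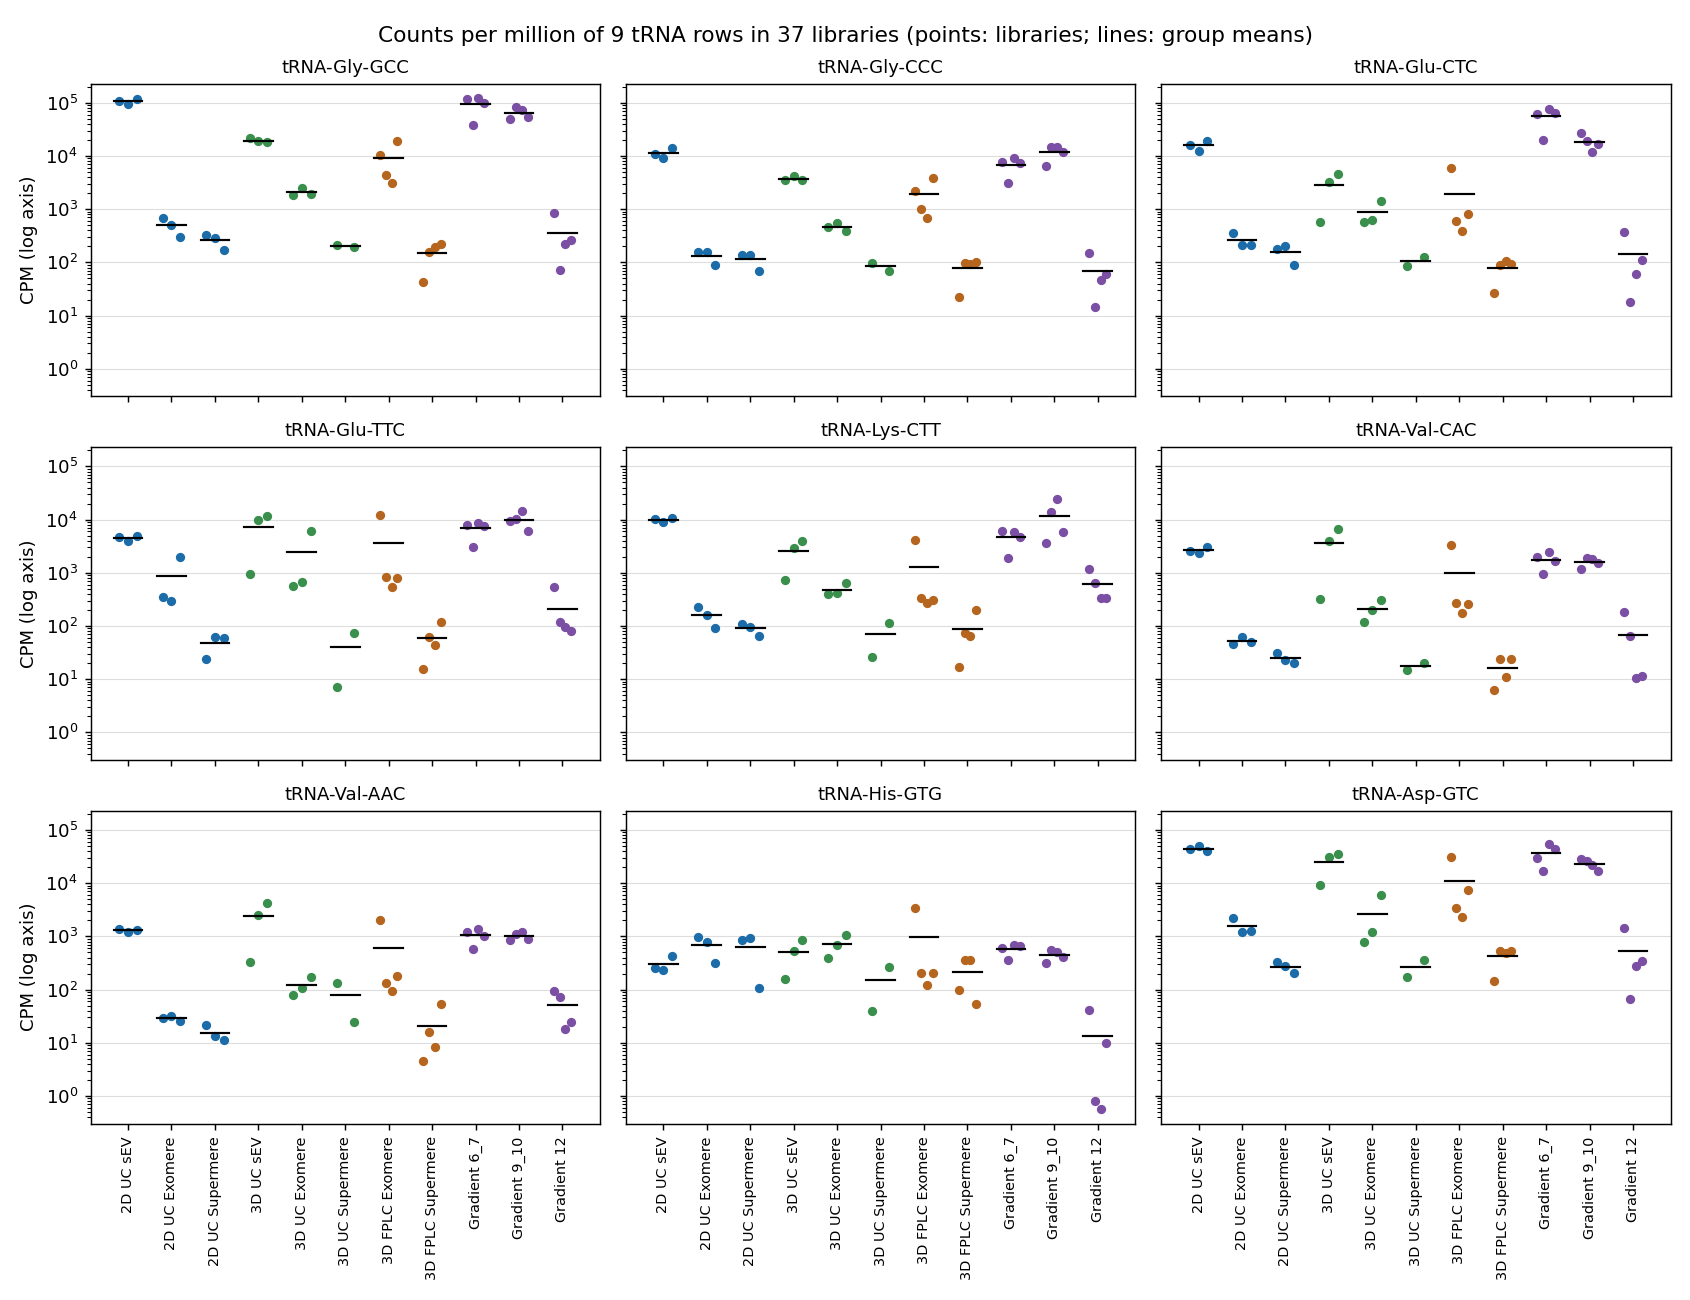
CPM of each of the 9 tRNA families (log axis) in the 37 libraries, 1 point per library, by group. Gly-GCC lies between 93831 and 119489 CPM in 2D sEV and between 169.6 and 321 CPM in 2D supermere, while the groups of His-GTG overlap their neighbours in rank throughout.

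The first comparison asks how the 2D UC fractions differ. In exomere against sEV, 8 of 9 members were lower, while 5.99% of the 8979 tested features were lower, and in supermere against sEV the same number, 8 of 9, were lower, against 6.43% of features. His-GTG is the member that passed in neither comparison. The members' median log2 fold change was -7.09 in exomere and -7.36 in supermere, beside -2.71 and -2.16 for the 40 other nuclear tRNAs and 0.17 and 0.00 for all features. Of the 40 others, 18 were lower in exomere and 12 in supermere, and of 22 mitochondrial tRNAs, 5 in each. By library totals 8 members were lower in both, and with these totals the median of all features shifted to 1.82 in exomere and 1.12 in supermere.

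Gly-GCC had 109564, 93831 and 119489 CPM in sEV, 677, 512 and 294 in exomere and 321, 286 and 169.6 in supermere. The groups did not overlap with sEV, and the sEV mean was 218-fold the exomere mean and 415-fold the supermere mean in CPM. The fitted log2 fold change was -9.42 (SE 1.03, adjusted p = 5.28e-16) in exomere and -9.37 (SE 1.03, adjusted p = 7.27e-16) in supermere. Gly-CCC, which reads GGG codons, had 10939.7, 9229 and 14111 CPM in sEV, 157, 154 and 90.3 in exomere and 139, 135 and 68.9 in supermere, with log2 fold changes of -7.99 (adjusted p = 5.90e-11) and -7.36 (adjusted p = 1.69e-10). Both glycine members fell in both particle fractions, and no particle library reached the sEV range. Glu-CTC, the reader of GAG codons, had 16382, 12422 and 18894 CPM in sEV, 359.9, 215 and 209 in exomere and 179, 201 and 90.5 in supermere. Its log2 fold changes were -7.49 (SE 0.98, adjusted p = 4.54e-11) and -7.42 (SE 0.98, adjusted p = 9.74e-12), and every sEV library lay above every other library. Glu-TTC, the reader of GAA codons, behaved apart in exomere: it had 4642, 4020.2 and 5018 CPM in sEV, 358, 295 and 1949 in exomere and 24.3, 61.3 and 60.3 in supermere. The drop from sEV was -3.35 on the log2 scale in exomere (adjusted p = 0.00289) and -6.72 in supermere (adjusted p = 5.08e-09), and exomere C was the highest of the 6 particle libraries.

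Asp-GTC had 43794, 50576 and 39801 CPM in sEV, 2208, 1218 and 1274 in exomere and 328, 280.4 and 201 in supermere, and no library of one fraction overlapped another fraction. Its log2 fold changes against sEV were -6.43 (SE 0.93, adjusted p = 9.60e-10) in exomere and -7.97 (SE 1.00, adjusted p = 6.54e-13) in supermere. Lys-CTT, which reads AAG codons, ran from 9115 to 10772 CPM in sEV, 92.5 to 229 in exomere and 66.1 to 109 in supermere, with log2 fold changes of -7.64 and -7.38 (adjusted p = 2.04e-10 and 2.20e-10). The valine members, which read codons starting with GU, had the lowest means in exomere and supermere, and in sEV the lowest but for His-GTG. Val-CAC ran from 2390.5 to 3003 CPM in sEV and 19.9 to 30.9 in supermere, and Val-AAC from 1221 to 1356 and 11.2 to 21.4. The log2 fold changes in exomere and supermere were -7.09 and -7.26 for Val-CAC and -6.96 and -7.01 for Val-AAC (adjusted p between 1.39e-09 and 1.37e-08). Without 2D exomere C, 8 members were lower in exomere, without exomere A or B 7, and without 2D supermere C, 8 were lower in supermere.

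His-GTG, the histidine tRNA, which carries an extra G at its 5′ end in the mature form, did not follow the others. It had 252, 231 and 421 CPM in 2D sEV, 955, 788 and 313 in exomere and 848, 947 and 108 in supermere. Exomere A and B and supermere A and B were above every sEV library, while exomere C and supermere C fell inside or below the sEV range. The fitted log2 fold change was -0.51 (SE 0.84, adjusted p = 1.00) in exomere and -0.21 (SE 0.84, adjusted p = 1.00) in supermere, and by library totals 1.19 (adjusted p = 0.450) and 1.07 (adjusted p = 0.672), so the sign turned with the scaling and neither test passed. As a share of tRNA counts it went from 0.121, 0.122 and 0.189% in sEV to 15.1, 17.1 and 4.02% in exomere and 24.6, 27.4 and 5.46% in supermere, and no particle library overlapped sEV. When the fit held the 49 nuclear tRNA rows alone, so that tRNAs were compared with other tRNAs, His-GTG was higher in exomere by 6.38 (SE 0.99, adjusted p = 1.88e-06) and in supermere by 7.05 (SE 1.02, adjusted p = 2.66e-07). In that fit Gly-GCC was lower, with log2 fold changes of -2.61 (SE 0.66, adjusted p = 7.09e-04) in exomere and -2.57 (SE 0.66, adjusted p = 5.40e-04) in supermere, and Glu-TTC was higher in exomere by 2.49 (SE 0.66, adjusted p = 0.00105). It gave 3 passing members in exomere (2 higher, 1 lower) and 3 in supermere (1 higher, 2 lower), and 34 and 37 of the 40 other tRNAs passed, all higher. The composition plot shows the same change as shares.

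**Figure D2:**
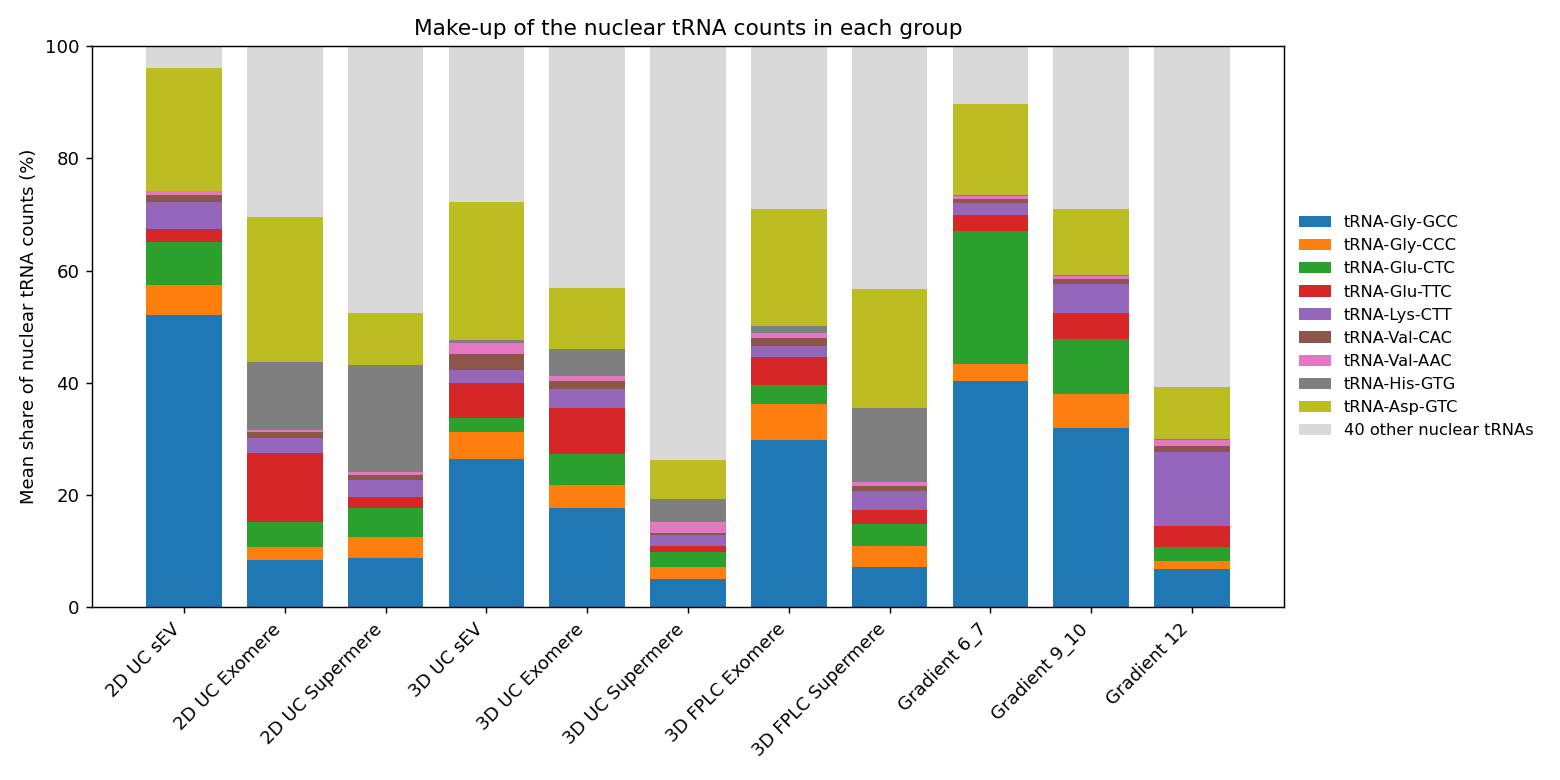
Mean share of nuclear tRNA counts (percent, stacked to 100) in the 11 groups, with 1 colour for each of the 9 families (dark grey for His-GTG) and light grey for the 40 other nuclear tRNAs. The 9 families fill 95.8 to 96.4% of tRNA counts in 2D sEV, and the His-GTG band is widest in 2D exomere, 2D supermere and FPLC supermere.

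Supermere against exomere in 2D showed no passing member with edgeR (adjusted p below 0.05), against 0.0557% of all features, and DESeq2 gave 0 as well. At an unadjusted p below 0.05 there were 2, and with library totals 1 passed. Glu-TTC had the largest difference, with a log2 fold change of -3.37 (SE 0.87, adjusted p = 0.119), and -4.16 (adjusted p = 0.00107) by library totals. Its 3 supermere libraries lay below its 3 exomere libraries. Without 2D supermere C, 1 member passed. Across the 3 fractions of 2D UC, shares of tRNA counts were compared jointly with exact permutation tests, in both directions, over 1680 assignments and adjusted over 49 families. Gly-CCC passed (adjusted p = 0.0117), at 5.27, 4.86 and 6.35% in sEV, 2.48, 3.34 and 1.16% in exomere and 4.04, 3.91 and 3.50% in supermere, so exomere had the lowest shares. It was the 1 member of 9 to pass, against 38.8% of the 49 families, and 18 of the 40 others passed. His-GTG, whose shares in the particle fractions did not overlap sEV, did not pass this test. Glu-CTC (adjusted p = 0.0525), Glu-TTC (0.0533), Gly-GCC (0.0603) and Lys-CTT (0.0603) had adjusted p just above the threshold in these exact tests. Without exomere C 4 members passed, without supermere C or exomere A or B 2, and on the log2 share 6.

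In the 3D UC fractions 5 members were lower in exomere than in sEV, against 6.74% of features, and 8 were lower in supermere, against 4.83%. The members' median log2 fold changes were -2.85 and -5.05, beside -3.09 and -4.24 for other nuclear tRNAs and -0.16 and -3.22 for all features. Of the 40 others, 20 and 21 were lower. By library totals 6 and 8 members were lower, but with RLE factors, another scaling, 2 and 3, with DESeq2 1 and 3, and with only the groups compared in the fit 3 and 4. Gly-GCC had 21571, 18934 and 18039 CPM in sEV, 1824, 2478 and 1965 in exomere and 214 and 192 in supermere, in 3 separate ranges. Its log2 fold changes were -3.07 (SE 0.77, adjusted p = 0.00271) in exomere and -6.09 (SE 1.07, adjusted p = 3.42e-06) in supermere. Asp-GTC had 9286, 31164 and 36176 CPM in sEV, 791, 1212 and 5882 in exomere and 176 and 357 in supermere, with log2 fold changes of -3.35 (SE 0.80, adjusted p = 0.00142) and -5.85 (SE 1.09, adjusted p = 1.32e-05). Exomere C was the highest exomere library and still lay below sEV A.

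Val-CAC had 319.8, 4029 and 6571 CPM in sEV, 120.1, 202 and 311 in exomere and 14.6 and 20.3 in supermere, and its log2 fold changes were -4.00 (SE 0.92, adjusted p = 8.53e-04) and -7.05 (SE 1.28, adjusted p = 8.15e-06). Val-AAC had 329.7, 2543 and 4304 CPM in sEV, 78.9, 109 and 171 in exomere and 131 and 24.9 in supermere, with log2 fold changes of -4.21 (adjusted p = 5.96e-04) and -4.81 (adjusted p = 0.00186). For both valine members sEV A was far below sEV B and C, yet above each exomere library. Gly-CCC was lower in both, with log2 fold changes of -2.85 (SE 0.84, adjusted p = 0.0143) and -5.05 (SE 1.11, adjusted p = 3.85e-04). Glu-CTC had 565, 3266 and 4679 CPM in sEV and 571, 616 and 1426 in exomere, which overlapped and did not pass, and 83.8 and 129 in supermere, with a log2 fold change of -4.06 (SE 1.00, adjusted p = 0.00227) from sEV. Glu-TTC had 959, 9775 and 11451 CPM in sEV, 553, 673 and 6123 in exomere and 7.24 and 73.5 in supermere, and its supermere log2 fold change was -6.56 (SE 1.21, adjusted p = 1.32e-05) against sEV and -4.84 (SE 1.11, adjusted p = 0.00851) against exomere. Lys-CTT was lower in supermere, with a log2 fold change of -4.31 (SE 1.08, adjusted p = 0.00289). Glu-TTC was the only member to pass between supermere and exomere, against 0.156% of features that were lower, and 3 passed by library totals but 0 with RLE factors or DESeq2. Without 3D UC exomere C or 3D UC supermere B, 0 members passed there. Without supermere B 5 members were lower in supermere than in sEV, while 5 were lower in exomere without exomere C and 4 without exomere A. Without sEV A the counts were 6 in exomere and 8 in supermere.

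His-GTG had 159.8, 534 and 855 CPM in 3D UC sEV, 388, 698 and 1073 in exomere and 39.1 and 268 in supermere, which overlapped. Its shares of tRNA counts were 0.374, 0.481 and 0.567% in sEV, 5.04, 7.36 and 1.80% in exomere and 0.881 and 7.48% in supermere, so no particle library was at or below sEV. Among tRNA rows alone it was higher by 3.32 (SE 0.86, adjusted p = 0.0173) in exomere and 3.14 (SE 0.89, adjusted p = 0.00993) in supermere. In the same fit 4 members were lower in supermere, with log2 fold changes of -2.38 (SE 0.77, adjusted p = 0.0178) for Gly-GCC, -2.48 (SE 0.78, adjusted p = 0.0156) for Glu-TTC, -2.70 (SE 0.83, adjusted p = 0.0147) for Val-CAC and -1.82 (SE 0.62, adjusted p = 0.0238) for Asp-GTC. How many other tRNAs passed in that fit is not given, so the count is not a result about the members. The share test over the 3 fractions, an exact permutation test of 560 assignments, called no member and 0.0% of the 49 families, and 1 member had an unadjusted p below 0.05. That member was Asp-GTC, with an unadjusted p of 0.00714 and an adjusted p of 0.175 in the exact test, named after its values were seen.

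Between cultures, 9 of 9 members were higher in 3D than in 2D exomere with TMM scaling, against 3.44% of features that were higher. The members' median log2 fold change was 4.22, with 3.81 for other nuclear tRNAs, 25 of 40 of which were higher, and -1.77 for all features. By library totals 5 members were higher and the median of all features moved to -4.27. Gly-GCC had 1824, 2478 and 1965 CPM in 3D against 677, 512 and 294 in 2D exomere, with no overlap and a log2 fold change of 4.78 (SE 0.84, adjusted p = 6.24e-06). Gly-CCC, with 4.44 (SE 0.90, adjusted p = 2.06e-04), Glu-CTC, with 4.20 (SE 0.85, adjusted p = 1.60e-04), Lys-CTT, with 4.22 (SE 0.90, adjusted p = 5.14e-04), Val-CAC, with 4.40 (SE 0.94, adjusted p = 5.03e-04), and Val-AAC, with 4.46 (SE 0.96, adjusted p = 5.85e-04), also had ranges that did not overlap. Glu-TTC (3.18 (SE 0.86, adjusted p = 0.0119)), His-GTG (2.76 (SE 0.89, adjusted p = 0.0434)) and Asp-GTC (3.11 (SE 0.80, adjusted p = 0.00730)) passed with ranges in CPM that overlapped. His-GTG had a mean of 720 CPM in 3D and 685 CPM in 2D exomere. By library totals its log2 fold change was 0.0709 (edgeR adjusted p = 0.960), and that of Asp-GTC was 0.746 (edgeR adjusted p = 0.314). Glu-TTC (edgeR adjusted p = 0.0727) and Lys-CTT (edgeR adjusted p = 0.0583) did not pass by library totals either. With TMM scaling 6 members passed without 3D UC exomere C, 7 without 2D exomere A or B and 8 without 2D exomere C or 3D UC exomere B. Among tRNA rows alone no member passed.

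In sEV no member passed between cultures with edgeR, against 1.96% of features, while 3 had an unadjusted p below 0.05 and DESeq2 called 3. By library totals 1 member, Gly-GCC, was lower in 3D. Gly-GCC had 21571, 18934 and 18039 CPM in 3D and 109564, 93831 and 119489 in 2D sEV, with no overlap, and its log2 fold change was -1.57 (SE 0.73, adjusted p = 0.420) with TMM and -2.46 (adjusted p = 0.0289) with library totals. Glu-CTC had 565, 3266 and 4679 CPM in 3D and 16382, 12422 and 18894 in 2D sEV, again with no overlap. By contrast, 20 of the 40 other nuclear tRNAs were higher in 3D sEV. In supermere 1 member, Val-AAC, was higher in 3D, against 1.45% of features, with 131 and 24.9 CPM against 21.4, 13.4 and 11.2 in 2D and a log2 fold change of 3.92 (SE 0.97, adjusted p = 0.00474). Without 3D UC supermere B or 2D supermere A 0 members passed, without 2D supermere C 2, by library totals 0 and with RLE factors 3. Shares compared between cultures within fractions (exact permutation test, 4000 assignments) called no member, against 6.12% of families, and 3 members had an unadjusted p below 0.05. Without 3D UC exomere C 4 members passed that test.

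The step from sEV to exomere was itself compared between cultures, as an interaction term in edgeR. Here 4 members passed, all with a smaller drop in 3D, against 0.724% of features on that side, and 4 of the 40 other nuclear tRNAs passed. The difference of log2 fold changes was 6.36 (SE 1.10, adjusted p = 6.83e-05) for Gly-GCC, 5.14 (SE 1.17, adjusted p = 0.00644) for Gly-CCC, 5.83 (SE 1.13, adjusted p = 0.00102) for Glu-CTC and 5.35 (SE 1.19, adjusted p = 0.00433) for Lys-CTT. For Gly-GCC the drop was -9.42 in 2D and -3.07 in 3D. For Glu-CTC it was -7.49 in 2D, while in 3D the fractions overlapped. By library totals 2 passed, Gly-GCC and Glu-CTC, and without 3D UC sEV A 3, Lys-CTT no longer among them (adjusted p = 0.0506). Among tRNA rows alone 4 members also passed, but not the same ones: Gly-GCC, with 2.03 (SE 0.89, adjusted p = 0.0420), and Glu-CTC, with 1.96 (SE 0.82, adjusted p = 0.0345), kept their direction, while Glu-TTC, with -2.09 (SE 0.90, adjusted p = 0.0384), and His-GTG, with -3.07 (SE 1.13, adjusted p = 0.0162), ran the other way. Gly-CCC (adjusted p = 0.332) and Lys-CTT (adjusted p = 0.128) did not pass in that fit. The number of other tRNAs that passed there is not given, so its count of members is not a result about them as a group. Medium volume, time without serum and culture form differ together between 2D and 3D and cannot be told apart. The map of log2 fold changes shows these comparisons side by side.

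**Figure D3:**
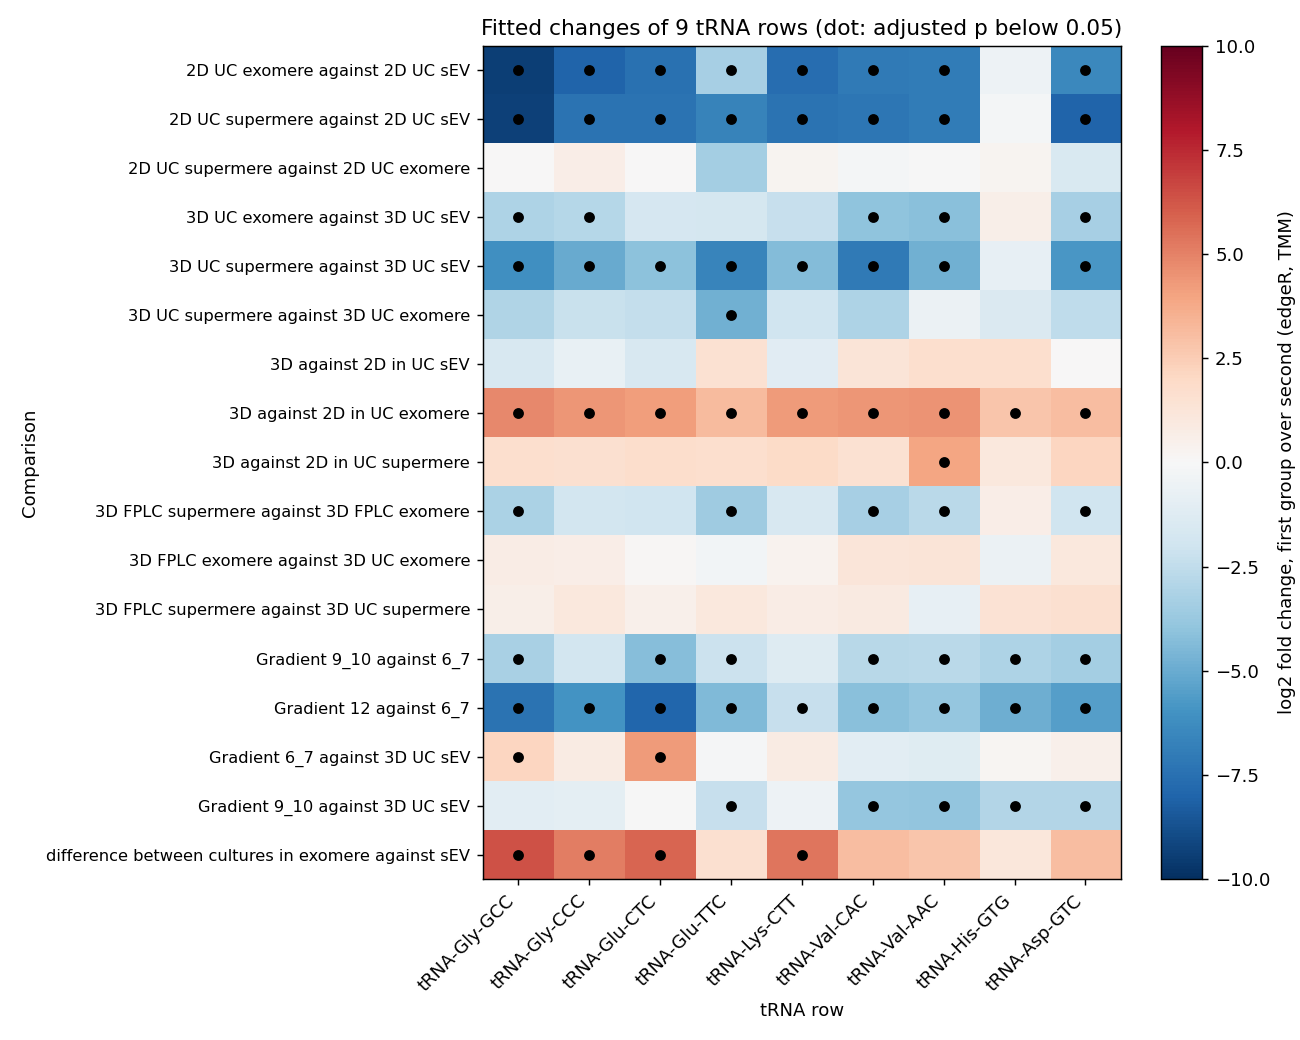
Log2 fold change (edgeR, TMM scaling, colour) of the 9 tRNA families in 17 comparisons, with a dot where the adjusted p is below 0.05. Of the 9 families, 8 carry a dot in 2D exomere and 2D supermere against sEV, and 9 in gradient pool 12 against 6_7.

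In the FPLC preparations 5 members were lower in supermere than in exomere, against 4.59% of features. Their median was -2.02, beside -2.63 for other nuclear tRNAs and -1.61 for all features. By library totals 9 members were lower, with 35 of the 40 other tRNAs and 4309 of all features, and the median of all features there was -3.77. Gly-GCC had 10556, 4428, 3052 and 19341 CPM in exomere and 42.5, 157, 190.5 and 217 in supermere, which did not overlap, with a log2 fold change of -3.14 (SE 0.67, adjusted p = 2.29e-04). Glu-TTC had 12453, 849, 541 and 814 CPM in exomere and 15.9, 63.3, 44.1 and 117 in supermere, with -3.55 (SE 0.76, adjusted p = 2.29e-04). Exomere A stood far above B, C and D for Glu-TTC and not for Gly-GCC. Val-CAC (-3.35 (SE 0.77, adjusted p = 9.30e-04)), Val-AAC (-2.71 (SE 0.77, adjusted p = 0.0121)) and Asp-GTC (-2.02 (SE 0.66, adjusted p = 0.0397)) were also lower. Without exomere A 2 members passed, 1 in each direction, without supermere C 3, and without supermere D 4.

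His-GTG had 3422, 204, 119.8 and 207 CPM in FPLC exomere and 97.7, 354, 356 and 54.8 in FPLC supermere, and 1.66, 1.46, 1.25 and 0.542% and 16.7, 16.7, 18.2 and 1.04% of tRNA counts. Supermere A, B and C were far above every exomere library in share, and supermere D lay inside the exomere range. Among tRNA rows alone it was higher in supermere by 3.42 (SE 0.74, adjusted p = 0.00183) and Gly-GCC was lower, with a log2 fold change of -2.07 (SE 0.56, adjusted p = 0.00917). Asp-GTC kept a like share in both, 14.9, 24.1, 24.7 and 19.4% in exomere and 25.2, 24.9, 24.5 and 10.1% in supermere. With 4 against 4 libraries the exact permutation test of shares cannot go below 0.0286, and after adjustment no member and 0.0% of families passed, with 1 member at an unadjusted p below 0.05. Compared with the UC preparations of the same medium, 0 members passed in exomere, against 5.67% of features, and 0 in supermere, against 0.212%, with 0 at an unadjusted p below 0.05 and 0 by DESeq2 in both. By library totals 5 members were higher in FPLC than in UC exomere, and without FPLC exomere A 2 members passed, both lower. Gly-GCC, at 10556, 4428, 3052 and 19341 CPM by FPLC and 1824, 2478 and 1965 by UC, did not overlap, and the fitted difference was 0.71 (SE 0.68, adjusted p = 0.545) with TMM and 2.16 (adjusted p = 0.0173) with library totals.

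In the density gradient all 9 members were lower in pool 12 than in pool 6_7, against 5.3% of features. None overlapped in CPM, but the share of all features likewise apart is not given, so this is not a result about the members. In pool 12 rRNA took 41.1 to 66.7% of counts, and in pool 6_7 it took 7.92 to 55.9%. The members' median log2 fold change was -4.87, beside -1.66 for the 40 other nuclear tRNAs, 10 of which were lower. By library totals 9 members and 16 others were lower, but with RLE factors and with DESeq2 5 members each. Gly-GCC had 119200.4, 38053, 123768 and 97259.7 CPM in pool 6_7 and 855, 73.4, 221 and 269 in pool 12, with a log2 fold change of -7.38 (SE 0.82, adjusted p = 1.01e-15). Glu-CTC had 62399, 20281, 77369 and 65064 CPM in pool 6_7 and 380.1, 17.8, 61.0 and 110.4 in pool 12, with -7.94 (SE 0.87, adjusted p = 6.47e-16), the largest change among the members in this comparison. Lys-CTT had the smallest: 5999, 1937, 5925 and 4622 CPM in pool 6_7 and 1189, 653, 337 and 330.0 in pool 12, with -2.29 (SE 0.72, adjusted p = 0.0220). Lys-CTT did not pass without pool 6_7 C or pool 12 B, C or D (edgeR adjusted p between 0.0556 and 0.119), which left 8 members. Between these lay Gly-CCC (-6.01), Asp-GTC (-5.49), His-GTG (-4.87), Glu-TTC (-4.43), Val-CAC (-4.18) and Val-AAC (-3.83) in log2 fold change, with adjusted p between 3.20e-10 and 7.07e-05. His-GTG, at 41.3, 0.821, 0.562 and 10.1 CPM, was at its lowest in pool 12 of the 11 groups.

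Pool 9_10 against 6_7 depended on the scale. With TMM 7 members were lower, against 4.4% of features, but their CPM ranges overlapped in all 9 cases, and by library totals 1 member, Glu-CTC, was lower, with RLE factors 2 and with DESeq2 1. The median of all features in this comparison was 2.71 with TMM and 5.32 with library totals, while the members' median was -2.78 and -0.13. Glu-CTC had 62399, 20281, 77369 and 65064 CPM in pool 6_7 and 26881, 18939.6, 11761 and 16776 in pool 9_10, and the log2 fold change was -4.28 (SE 0.73, adjusted p = 5.11e-06) with TMM and -1.60 (adjusted p = 0.0233) with library totals. Glu-TTC had 7972, 2989.8, 8787 and 7589 CPM in pool 6_7 and 9257, 10133, 14559 and 6094 in pool 9_10, and its log2 fold change of -2.15 (SE 0.71, adjusted p = 0.0376) turned to 0.55 (adjusted p = 0.554). Gly-GCC (-3.20 with TMM, -0.53 with library totals), Asp-GTC (-3.42, -0.66) and His-GTG (-3.10, -0.38) kept their sign. Pool 9_10 held the shallowest libraries, and without 9_10 A or 9_10 B 3 members passed. This comparison and the one before share the pool 6_7 libraries.

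Shares of tRNA counts, which leave the other RNA classes aside, differed across the 3 pools for 6 of 9 members, against 44.9% of the 49 families and 16 of the 40 others (exact permutation test, 34650 assignments, adjusted over 49 families). Glu-CTC took 23.2, 20.1, 25.2 and 26.1% of tRNA counts in pool 6_7, 14.6, 7.97, 4.22 and 12.2% in 9_10 and 3.53, 0.471, 2.48 and 3.58% in 12 (exact adjusted p = 0.00121), and the 3 ranges did not overlap. Lys-CTT went the other way, at 2.23, 1.92, 1.93 and 1.85%, 1.96, 5.75, 8.81 and 4.27% and 11.0, 17.3, 13.7 and 10.7% (exact adjusted p = 0.00189), with pool 12 above every other library. Its mean CPM was nonetheless lower in pool 12, at 627, than in pool 6_7, at 4621, and a fall in other shares raises its own. Gly-GCC took 44.4, 37.8, 40.3 and 39.0%, 27.2, 35.1, 26.6 and 39.3% and 7.93, 1.94, 8.99 and 8.72% (exact adjusted p = 0.00255), with pool 12 below the rest. Gly-CCC was highest in pool 9_10, at 3.59 to 8.60%, against 2.92 to 3.12% in 6_7 and 0.382 to 1.94% in 12 (exact adjusted p = 0.00121). Glu-TTC was also highest in 9_10 by mean, at 4.74% ± 0.459 (SD, n = 4) (exact adjusted p = 0.0428), and Val-AAC was highest in 12, at 1.07% ± 0.554 (SD, n = 4) (exact adjusted p = 0.0137). Among tRNA rows alone Lys-CTT was higher in pool 12 than in 6_7 by 2.73 (SE 0.54, adjusted p = 3.12e-05) and in 9_10 by 1.39 (SE 0.52, adjusted p = 0.0331), while Glu-CTC was lower in pool 12, with a log2 fold change of -3.23 (SE 0.54, adjusted p = 2.39e-06). Of the 40 other tRNAs, 30 were higher in pool 12 in that fit and 2 lower.

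Against 3D UC sEV, pool 6_7 had 2 members higher, Gly-GCC and Glu-CTC, against 0.234% of features that were higher. Glu-CTC had 565, 3266 and 4679 CPM in 3D UC sEV against 62399, 20281, 77369 and 65064 in pool 6_7, with no overlap and a log2 fold change of 4.25 (SE 0.83, adjusted p = 3.97e-05). Gly-GCC had 21571, 18934 and 18039 against 119200.4, 38053, 123768 and 97259.7 CPM, also with no overlap and 2.18 (SE 0.72, adjusted p = 0.0496). Without any 1 of 3D UC sEV A, B or C or pool 6_7 A, C or D, 1 member passed. Among tRNA rows alone Glu-CTC was higher by 3.27 (SE 0.61, adjusted p = 4.79e-05), and Val-CAC and Val-AAC were lower, with log2 fold changes of -1.89 (SE 0.62, adjusted p = 0.00766) and -2.06 (SE 0.59, adjusted p = 0.00280). Pool 9_10 against 3D UC sEV gave 5 members lower with TMM, against 6.2% of features, and 1 higher, Glu-CTC, with library totals, while RLE factors and DESeq2 each gave 4 higher. Glu-CTC had 26881, 18939.6, 11761 and 16776 CPM in pool 9_10, above every 3D UC sEV library, and its log2 fold change was -0.03 (SE 0.69, adjusted p = 1.00) with TMM and 2.71 (adjusted p = 0.0144) with library totals. The 5 lower ones were Val-CAC (-3.85), Val-AAC (-3.93), His-GTG (-2.92), Asp-GTC (-2.90) and Glu-TTC (-2.31) in log2 fold change, each with CPM ranges that overlapped. Without pool 9_10 A 3 passed, without 9_10 B 2 and without 3D UC sEV C 3.

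Families that carry 1 amino acid did not hold a fixed ratio. The ratio within an amino acid is free of the scaling between libraries. Glu-CTC made up 77.9, 75.5 and 79.0% of the summed Glu-CTC and Glu-TTC counts in 2D sEV and 88.7, 87.2, 89.8 and 89.6% in pool 6_7, but 25.0 to 37.1% in 3D UC sEV. The 3D UC sEV libraries lay below all libraries of 2D sEV and of pool 6_7. It made up 50.1, 42.2 and 9.68% in 2D exomere, 50.8, 47.8 and 18.9% in 3D UC exomere and 41.3, 13.3, 39.1 and 58.0% in pool 12, and both exomere replicates C stood apart. Gly-GCC made up 89.4 to 91.0% of the summed Gly-GCC and Gly-CCC counts in 2D sEV, 92.4 to 93.8% in pool 6_7, 67.9 to 71.1% in 2D supermere and 61.6 to 67.9% in FPLC supermere. These glycine ratios rest on reads past the shared 32 bases, or on how reads were divided, and most Glu-CTC, Glu-TTC and Lys-CTT counts were likewise not whole. Lys-CTT made up 90.2 to 90.9% of lysine tRNA counts in 2D sEV, with Lys-TTT, the reader of AAA codons, as the rest, and 32.3, 61.1 and 58.5% in 3D UC sEV. It made up 57.1, 50.1 and 4.39% in 2D exomere, 43.0, 46.3 and 1.97% in 3D UC exomere and 6.40, 47.7, 44.0 and 13.1% in FPLC exomere. The lowest of these exomere values, 4.39% in 2D exomere C, 1.97% in 3D UC exomere C and 6.40% in FPLC exomere A, come from libraries named above as standing apart or, for 2D exomere C, with snRNA at 24.6% of counts against 10.5 and 14.6%. In 3D UC supermere it made up 1.93 and 13.1%. In the 3 exomere libraries just named Lys-TTT took 25.8, 53.6 and 29.6% of tRNA counts. The ratios were not tested, and the part of these libraries in the results was not tested beyond leaving each out.

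**Figure D4:**
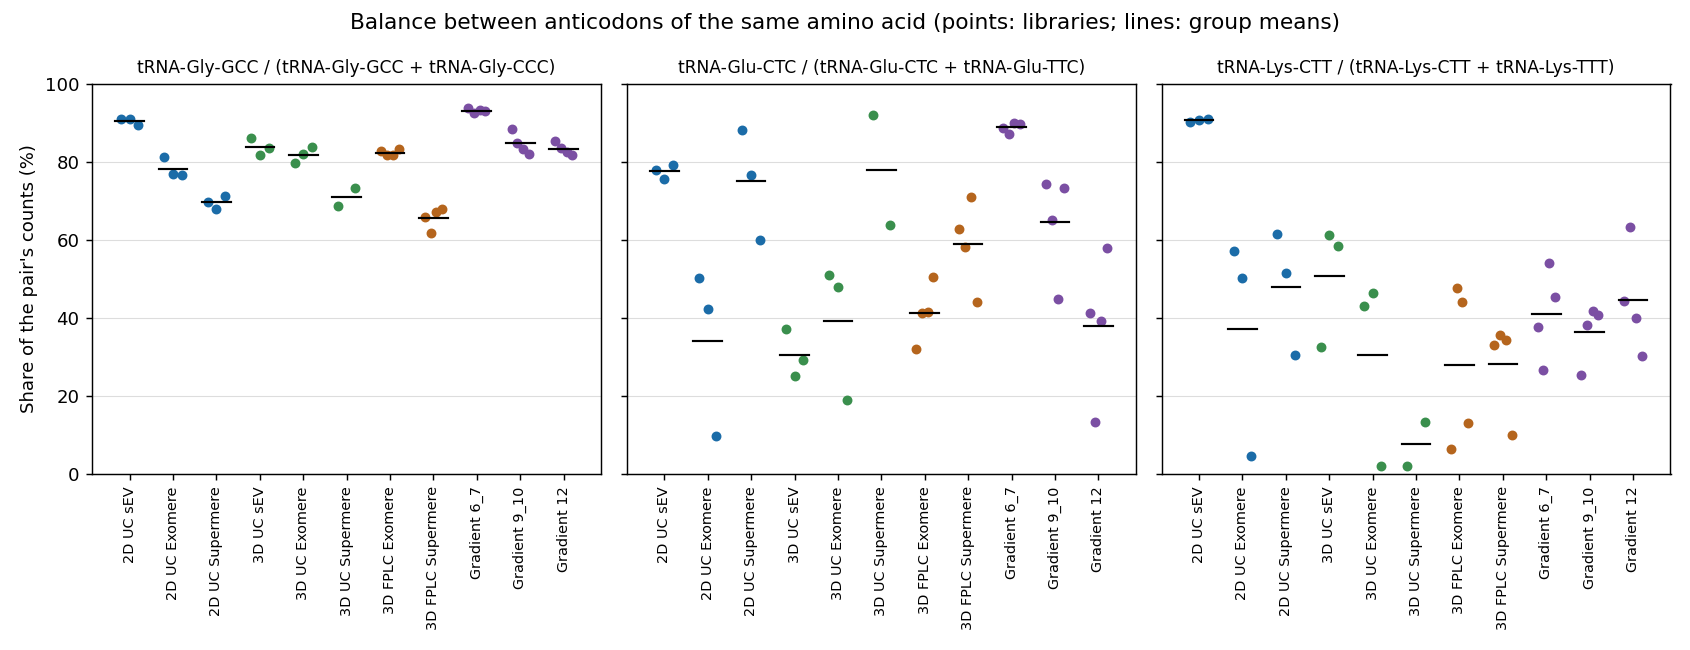
Percent of counts taken by Gly-GCC of Gly-GCC and Gly-CCC, by Glu-CTC of Glu-CTC and Glu-TTC, and by Lys-CTT of Lys-CTT and Lys-TTT, 1 point per library, by group. The glycine points lie between 61.6 and 93.8%, while the glutamate and lysine points spread widely, with lysine near 90% in 2D sEV and at 1.93 to 13.1% in 3D UC supermere.

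The other anticodons of the same amino acids, taken as a fixed list of Gly-TCC, Lys-TTT and Val-TAC, gave a mixed picture. Val-TAC fell with Val-CAC and Val-AAC in 2D exomere, with a log2 fold change of -6.17 (SE 1.03, adjusted p = 1.84e-07), and in pool 12, with -5.15 (SE 0.85, adjusted p = 1.12e-07). Gly-TCC fell in 2D exomere, with a log2 fold change of -5.66 (SE 1.02, adjusted p = 1.73e-06), in 2D supermere, with -5.39 (SE 1.01, adjusted p = 3.79e-06), and in pool 12, with -6.79 (SE 0.94, adjusted p = 2.07e-10). Lys-TTT ranged from 158 to 2013 CPM in 2D exomere and 483 to 31887 CPM in 3D UC exomere, and passed in none of the 17 comparisons. Across the 37 libraries, log2(CPM + 1) of 8 members correlated with one another at Pearson r between 0.864 and 0.988, while His-GTG correlated with them at 0.267 to 0.541. These values describe libraries that share groups, depth and divided reads. The features most like the mean of the members by this measure were Val-TAC (r = 0.980), the selenocysteine tRNA SeC-TCA (0.955), the long non-coding RNA EPCAM-DT (0.937), the 5S pseudogene RNA5SP150 (0.934) and ENSG00000286171 (0.934), over 37 libraries.

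Levels per base of gene changed their order between groups. The gene sequences are 71 to 74 bases long, so this scaling changes little. It does not remove effects of methylated bases or divided reads, which may differ between families. Gly-GCC led in each library of 2D sEV, at 1516 CPM per base on average, of pool 6_7, at 1332, and of pool 9_10, at 920.1. Asp-GTC had the highest mean in 2D exomere (21.8), 3D UC sEV (355), 3D UC exomere (36.5), 3D UC supermere (3.70), FPLC exomere (152) and FPLC supermere (5.86), but it led in every library only in FPLC supermere. Gly-GCC led in 3D UC exomere A and B and in FPLC exomere B, C and D, so the mean of Asp-GTC there rests on 3D UC exomere C and FPLC exomere A. Asp-GTC led in 2 of 3 libraries of 2D exomere and of 3D UC sEV and in 1 of 2 of 3D UC supermere. His-GTG had the highest mean in 2D supermere, at 8.81 CPM per base, and led in 2 of 3 libraries, although it was the lowest member in 2D sEV, at 4.18. Lys-CTT had the highest mean in pool 12, at 8.59 CPM per base, and led in 2 of 4 libraries, with Asp-GTC leading in the other two, while His-GTG was the lowest there at 0.183. Between groups that neighbour each other in rank, libraries did not overlap in 3 of 10 neighbouring pairs for Gly-GCC, Gly-CCC and Glu-CTC, in 2 for Lys-CTT and in 1 for Val-CAC. For Glu-TTC, Val-AAC, His-GTG and Asp-GTC every neighbouring pair of groups overlapped. The same counts for other features are not given, so these describe the order of groups and are not a result about the members.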

How the data were processed

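Small RNA of 38 libraries was analysed from 1 deposited table of expected counts per feature; the authors did not scale them, going by the values. Per the submitters' processing notes, cutadapt 4.5, FastQC 0.12.1, Bowtie 1.3.1 and the build GRCh38.p13 were used; the counting tool is not given in the sources used here. Values were rounded for tests. Sequences and coordinates came from the table, annotations of loci from GENCODE 29. Gene sequences of the glutamate members are not reported here.

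The main test was edgeR 4.0.16 in R 4.3.3 (glmQLFit, robust, and glmQLFTest) on 37 libraries (at least 10000 counts), 11 group means, scaled by TMM; filterByExpr (minimum count 10) left 8979 features, all 9 members among them. It had 26 residual degrees of freedom and a biological coefficient of variation of 1.20. Each SE was taken as |log2 fold change| / √F. Shares of tRNA counts were tested by exact permutation, two-sided, enumerating every assignment. The fits were tested on simulated data. Named besides the 9 families, by rule, are isoacceptors, at most 2 other tRNAs a comparison and the 5 features with the highest Pearson r to the members' mean log2(CPM + 1).

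Alternatives were library totals, RLE factors, nuclear tRNA rows alone, no filter on low counts, DESeq2 1.42.0, all 38 libraries, the compared groups alone, a replicate block and leaving out each replicate. The members, lists and tests were chosen with earlier results of these data known. Libraries may come from 2 projects, whose numbers the table's name gives without membership, so no fit could model them. Library totals ran from 81079 to 16991360 counts, and pool 9_10 was the shallowest.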

Additional observations from a re-analysis of the deposited data

Results flagged for a closer look

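In groups of 4 libraries, a library far from the other 3 by Dixon's criterion was found in 18 of 90 sets of 4 values. The sets are not independent, since the members correlate and each is taken as CPM and as share in the same libraries. The count can therefore not be set against chance. FPLC exomere A was highest for Glu-CTC (5835 CPM), Glu-TTC (12453 CPM), Lys-CTT (4158 CPM), Val-CAC (3318 CPM), Val-AAC (2034 CPM) and His-GTG (3422 CPM). FPLC exomere D had the lowest share of tRNA counts for Glu-TTC (2.13%) and Val-AAC (0.467%). FPLC supermere A was lowest for Gly-CCC (22.1 CPM) and Asp-GTC (148 CPM). FPLC supermere D had the lowest shares of His-GTG (1.04%) and Asp-GTC (10.1%).

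In the gradient, pool 6_7 B had the highest share of Gly-CCC (3.12%) and pool 6_7 A the lowest of Asp-GTC (11.3%). Pool 9_10 D had the highest share of Val-AAC (0.659%). Pool 12 B had the lowest share of Gly-GCC (1.94%) and the highest of Val-AAC (1.90%), and pool 12 A was highest for Glu-TTC (541 CPM).

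The fall from sEV to exomere differed between 2D and 3D culture for 4 members by the interaction term in edgeR. On the log2 scale the difference, 3D minus 2D, was 6.36 for Gly-GCC, 5.14 for Gly-CCC, 5.83 for Glu-CTC and 5.35 for Lys-CTT. The causes of these results were not tested.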

How the results depend on the processing

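The counts of passing members depended most on the scale between libraries. With library totals, the number passing was 1 in 2D supermere against exomere, 3 in 3D UC supermere against exomere, 1, 5 and 0 in 3D against 2D sEV, exomere and supermere, 9 in FPLC supermere against exomere, 5 in FPLC against UC exomere, 1 in pool 9_10 against 6_7, 1 (higher instead of lower) in pool 9_10 against 3D UC sEV and 2 in the difference between cultures. With RLE factors it was 2 and 3 in 3D UC exomere and supermere against sEV, 0 between them, 3 in 3D against 2D sEV and 3 in supermere, 2 in pool 9_10 and 5 in pool 12 against 6_7, and 4, now higher, in pool 9_10 against 3D UC sEV. DESeq2 gave 1, 3 and 0 in the 3D UC comparisons, 3 in 3D against 2D sEV, 1 in pool 9_10 and 5 in pool 12 against 6_7, and 4, now higher, in pool 9_10 against 3D UC sEV. With nuclear tRNA rows alone it was 3, 3 and 1 in the 2D comparisons (exomere against sEV now 2 higher and 1 lower), 1 (now higher) and 5 in 3D UC exomere and supermere against sEV, 3, 0 and 0 between cultures, 2 in FPLC, 2 in pool 9_10 and 3 in pool 12 against 6_7, and 3 (now mostly lower) and 3 in pools 6_7 and 9_10 against 3D UC sEV. With only the groups compared it was 3, 4 and 0 in 3D UC, 2 and 0 in 3D against 2D sEV and supermere, 2 in FPLC and 3 in pool 9_10 against 6_7. With no filter it was 0 in 3D against 2D supermere, 2 in FPLC, 2 in pool 9_10 against 6_7 and 3 (now mostly lower) in pool 6_7 against 3D UC sEV, and with all 38 libraries it was 1 there. The 2D share test called 3 with mitochondrial tRNA in the denominator and 6 on the log2 share.

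Signs of log2 fold changes also turned. With nuclear tRNA rows alone they became 2.49 for Glu-TTC, 6.38 for His-GTG and 0.24 for Asp-GTC in 2D exomere, 7.05 for His-GTG in 2D supermere, 0.16 for Glu-CTC in 3D UC supermere, -0.59 for Glu-TTC, -1.35 for His-GTG and -1.23 for Asp-GTC in 3D against 2D exomere, 0.027 for Asp-GTC in FPLC, 0.68 for Glu-TTC, 0.027 for Val-CAC and 0.087 for Val-AAC in pool 9_10, and 0.30 for Glu-TTC, 2.73 for Lys-CTT, 0.41 for Val-CAC and 1.18 for Val-AAC in pool 12, both against 6_7. For His-GTG in 2D exomere and supermere they were 1.19 and 1.07 with library totals, 1.17 and 1.79 with RLE factors and 1.17 and 1.79 with DESeq2. For Glu-TTC in pool 9_10 against 6_7 they were 0.55 with library totals, 0.0094 with RLE factors and with DESeq2, and 0.49 with only the groups compared. In pool 9_10 against 3D UC sEV they were 0.44 with library totals, 0.70 with RLE factors and 0.70 with DESeq2 for Glu-TTC, 0.025 with both for His-GTG and 0.15 with both for Asp-GTC. The cause was not tested. The 74 member values followed are the called ones and, though not called, His-GTG in 2D exomere and 2D supermere against sEV. Of these, 54 kept sign and test outcome with library totals, 45 with RLE factors, 42 with DESeq2 and 17 among tRNA rows alone.

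Leaving out 1 library gave 7 to 8 and 8 to 8 in 2D exomere and supermere against sEV, 0 to 1 between them, 4 to 6, 5 to 8 and 0 to 1 in 3D UC, 0 to 0, 6 to 9 and 0 to 2 between cultures, 2 to 6 in FPLC, 0 to 2 and 0 to 0 for FPLC against UC, 3 to 7 and 8 to 9 for pools 9_10 and 12, 1 to 2 and 2 to 5 for pools 6_7 and 9_10 against 3D UC sEV, 3 to 4 for the difference between cultures, and for shares 1 to 4, 0 to 0, 4 to 6, 0 to 4 and 0 to 0. Libraries that moved a count by over 1.5 times are named beside it in the results.

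In 0 of 55 pairs of groups did every same-letter correlation exceed 0.1, the rule used for pairing. Over these pairs the median of the mean correlations was 0.0146 for the same letter and -0.00498 for different letters. The highest mean for the same letter was 0.195, in 2D exomere and 2D supermere, beside -0.0977 for different letters. The rule cannot exclude that some letters share a pool. With a replicate block, pool 6_7 against 3D UC sEV had 1 passing member instead of 2, and 72 of the 74 followed member values kept sign and test outcome. Pool 9_10, with the fewest counts, limits what its low members can show.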

Other observations

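Outside the 9 families, a few nuclear tRNAs had the largest changes. tRNA-Ile-GAT, an isoleucine tRNA, was at a mean of 2347 CPM in gradient pool 6_7, 8.48 CPM in 3D UC sEV and 5.82 CPM in pool 12. Its log2 fold change was 8.10 (SE 1.14, edgeR adjusted p = 1.61e-09) for pool 6_7 against 3D UC sEV and -8.21 (SE 1.01, edgeR adjusted p = 9.72e-13) for pool 12 against 6_7. Those comparisons share the pool 6_7 libraries. The initiator tRNA iMet-CAT, which starts translation, was lower in pool 6_7 than in 3D UC sEV, with a log2 fold change of -4.30 (SE 0.87, edgeR adjusted p = 9.47e-05), and lower in 3D UC supermere than in sEV, with -6.12 (SE 1.28, edgeR adjusted p = 1.65e-04). The threonine tRNA Thr-TGT was higher in 3D than in 2D exomere by 7.54 (SE 1.16, edgeR adjusted p = 5.50e-08), and the alanine tRNA Ala-TGC higher in 3D than in 2D supermere by 5.65 (SE 1.09, edgeR adjusted p = 4.19e-05). These tRNAs are among at most 2 per comparison with the largest change in their comparison among those that passed.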
